A study of Mus musculus with 4 samples.

Results

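Muscle splicing regulators are proteins that bind pre-mRNA near exons and set which exons a heart or skeletal muscle cell keeps. The 10 genes described here, Rbfox1, Rbfox2, Rbm20, Rbm24, Mbnl1, Mbnl2, Celf1, Celf2, Ptbp1 and Qk, were chosen by symbol among 22322 genes, each symbol matched 1 row, and all 10 passed the filter on low counts. RNA was sequenced from cardiomyocytes isolated by Langendorff perfusion (digestion of the heart through its coronary arteries) from male mice operated on at 2 months of age. The 2 sham libraries came from mice with a mock operation and the 2 TAC libraries from mice with transverse aortic constriction, a narrowing of the aorta that loads the left ventricle. Each library was made from a share of the cardiomyocytes of 1 mouse heart. The labels name no deleted gene and no agent in either group, and the methods give ketamine and xylazine anaesthesia for the operation. The sources used here do not give the strain. The methods give 14 weeks both as the time after surgery at imaging and as the age at cell isolation.

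Splicing factors act by position: the same protein can promote an exon when it binds on one side and block it when it binds on the other. In the heart, RBFOX and MBNL proteins favour the exon choices of mature muscle, CELF and PTB proteins favour many of the choices of immature cells, RBM20 blocks exons of the giant sarcomere protein titin, and RBM24 and Quaking (Qk) keep exons in sarcomere transcripts. The question addressed was whether the RNA of these regulators differed between pressure-loaded and sham cardiomyocytes. The files hold RNA per gene, so neither exon use nor protein was measured.

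The total expected count per library, an estimated number of fragments assigned to genes, ran from 24237777 to 32118323. The 13 protein-coding mitochondrial genes took 39.8% to 40.9% of counts in 3 libraries and 47.4% in TAC 1. The 2 TAC libraries differed more from each other (chi-square per degree of freedom 26.7) than the 2 sham libraries did (8.08). The 12 cardiomyocyte marker genes summed to 78080 and 86980 CPM in sham and to 84430 and 81190 CPM in TAC, where CPM is the count relative to a library size scaled by TMM, which corrects for differences in composition. Markers of other cells were present too, the highest of them at the 93.6th percentile of FPKM among tested genes. Of these, 12 of 12 endothelial markers had a negative log2 fold change (3 called), as did 12 of 12 fibroblast markers (3 called), 10 of 10 pericyte and smooth muscle markers (2 called) and 12 of 12 macrophage markers (lowest edgeR adjusted p = 0.0912). Endothelial markers summed to 733 and 591 CPM in sham against 351 and 492 CPM in TAC, fibroblast markers to 261 and 187 against 109 and 149, and pericyte and smooth muscle markers to 758 and 796 against 440 and 579. Of this last sum, Abcc9, a potassium channel subunit that cardiomyocytes also express, gave 380 and 406 CPM in sham and 279 and 303 CPM in TAC, and the other 9 genes (1 called) gave 378 and 390 against 161 and 276. Macrophage markers summed to 140 and 71.5 CPM in sham and 39.3 and 71.9 CPM in TAC, which overlapped. Lymphocyte markers did not pass 2.22 CPM in sum in any library, and Schwann cell and neuron markers did not pass 2.97 CPM, with the neuronal gene Rbfox3 at 0 counts throughout.

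1 of the 10 regulators was called changed. Rbfox1 RNA fell in TAC, by 29.0%, while Rbfox2, Rbm20, Mbnl2, Celf1 and Qk lay within 0.07 of 0 on the log2 scale. Over all 12499 genes tested, 626 (5.01%) had an adjusted p under 0.05 in edgeR's quasi-likelihood test, and 304 (2.43%) of all tested were called lower. Among the regulators, 8 log2 fold changes were negative and 2 positive, with a median of -0.04 against -0.01 for all genes tested. An unadjusted p under 0.05 was found for 3 of them (Rbfox1, Ptbp1 and Mbnl1), against 27.5% of all genes. The TAC and sham libraries did not overlap in CPM for 5 of 10, 3 lower and 2 higher, against 60.1% of all genes tested (30.3% lower and 29.8% higher). By both shares the 10 regulators stood close to the background of all genes. P-values measure the spread between the mice sequenced, 2 per group, pooled over genes by the model, and with 2 against 2 no exact permutation test of 1 gene can go below 0.333. In bulk RNA, fewer cells of a type and less RNA per cell cannot be told apart.

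**Figure D1:**
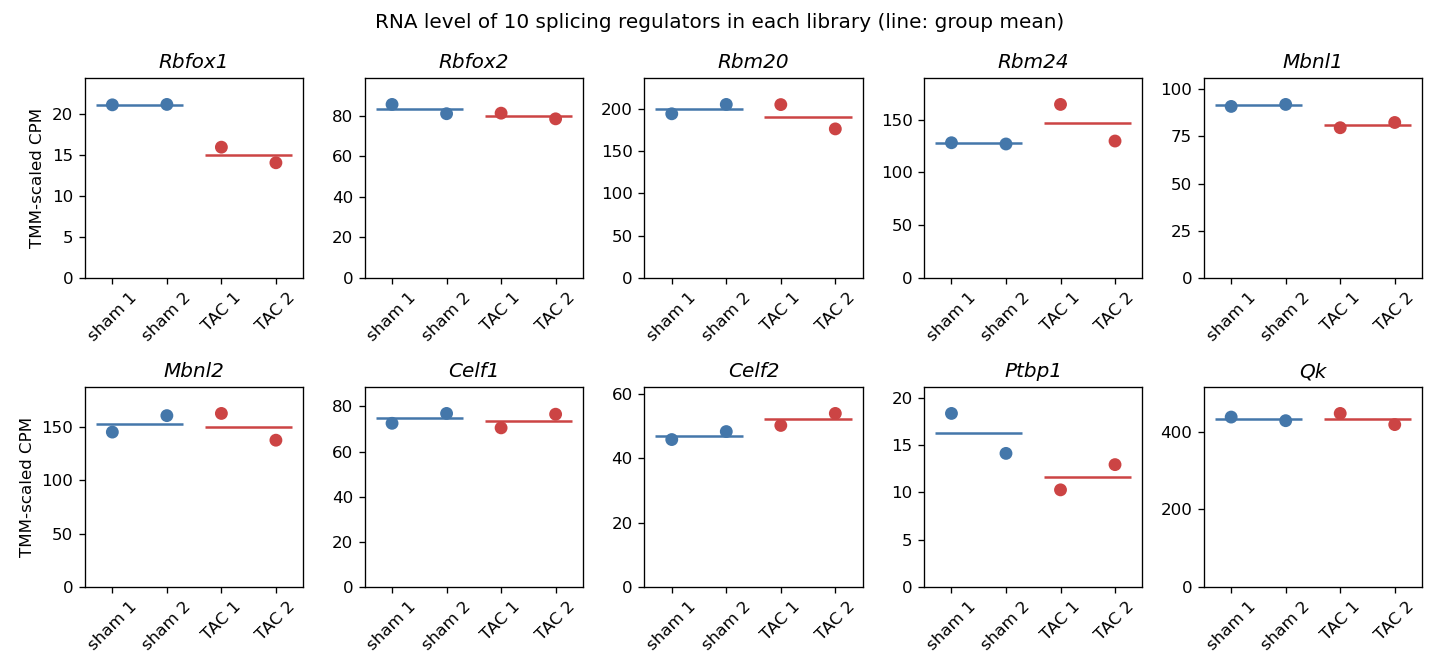
TMM-scaled CPM of the 10 splicing regulators in each library (points, sham in blue and TAC in red, lines at the group means, each axis starting at 0). Both TAC libraries of Rbfox1, Mbnl1 and Ptbp1 lie below both sham libraries, both of Rbm24 and Celf2 lie above, and the groups overlap for the other 5 genes.

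RBFOX proteins read the short motif GCAUG. Rbfox1 (ENSMUSG00000008658, GRCm38 chr16:5885355-7411526, plus strand) is the family member restricted mostly to muscle and neurons. Its CPM was 21.1 in both sham libraries, 15.9 in TAC 1 and 14.03 in TAC 2, so the TAC libraries lay below the sham libraries and the sham pair nearly coincided. The log2 fold change was -0.49 ± 0.11 (SE, n = 2 per group, 95% interval -0.75 to -0.24, edgeR adjusted p = 0.0477), which as a percent change spans -40.4% to -15.4%. Without any 1 of the 4 libraries the adjusted p lay between 0.0646 and 0.085, and the log2 fold change between -0.59 and -0.40, so the direction held and the call did not. Limma on log2(FPKM + 1) gave -0.58 with an adjusted p of 0.0622. The endothelial, fibroblast, pericyte and smooth muscle sums given above were also lower in both TAC libraries, and their part in the fall was not tested. These sums were lowest in TAC 1, and Rbfox1 was lowest in TAC 2 by CPM and in TAC 1 by FPKM.

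Rbfox2 (ENSMUSG00000033565, chr15:77078990-77307004, minus strand) is the more broadly expressed relative and the gene on which the study centres. It stood at 85.6 and 81.0 CPM in sham and at 81.3 and 78.5 CPM in TAC. The groups overlapped, and its log2 fold change of -0.06 ± 0.07 (SE, n = 2 per group, edgeR adjusted p = 0.625) carries a 95% interval from -14.9% to 8.03%. On the deposited FPKM (fragments per kilobase of transcript, scaled by total counts) the Rbfox2 values were 18.2 and 17.1 in sham and 13.8 and 14.7 in TAC, which do not overlap and give a log2 ratio of group means of -0.30. Scaling by total counts moved the median of all genes tested to -0.20, and limma on log2(FPKM + 1) gave Rbfox2 -0.29 with an adjusted p of 0.201, so neither scale called it.

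The study is concerned with 5 microRNAs and Rbfox2, so their mature sequences and the places where their seeds pair in the annotated 3′ untranslated region are shown. A microRNA recognises a target mainly through its seed, bases 2 to 8, which pairs with a complementary stretch of the mRNA. The RefSeq mature sequences (GRCm38 table), with the seed in capitals, share no seed with one another:
mmu-let-7f-5p: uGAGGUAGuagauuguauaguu
mmu-miR-16-5p: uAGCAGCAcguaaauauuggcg
mmu-miR-200b-3p: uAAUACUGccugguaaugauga
mmu-miR-92a-3p: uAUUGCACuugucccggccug
mmu-miR-24-3p: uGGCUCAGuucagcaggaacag

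The longest annotated Rbfox2 3′ untranslated region (5172 bases, GENCODE M21) held 8 matches, and that of Rbfox1 (1713 bases) held 1. A match was scored as a 7mer-m8 (pairing to bases 2 to 8), a 7mer-A1 (bases 2 to 7 followed by an A) or an 8mer (both). The windows of 22 bases are written 5′ to 3′ on the mRNA strand with the matched bases in capitals:
Rbfox2 miR-92a-3p 7mer-A1, chr15:77084100-77084121: atgaggcctggctatTGCAATA
Rbfox2 let-7f-5p 7mer-A1, chr15:77084025-77084046: gagaatacttttttaTACCTCA
Rbfox2 miR-24-3p 7mer-A1, chr15:77083263-77083284: tgctgcccctttaatTGAGCCA
Rbfox2 miR-16-5p 7mer-m8, chr15:77083225-77083246: ttcttttattaacaTGCTGCTc
Rbfox2 miR-16-5p 8mer, chr15:77082530-77082551: ttcacctgagggatTGCTGCTA
Rbfox2 miR-24-3p 7mer-m8, chr15:77081106-77081127: agccgctgtctgaaCTGAGCCg
Rbfox2 miR-200b-3p 7mer-m8, chr15:77079749-77079770: gtattttctgttaaCAGTATTt
Rbfox2 miR-200b-3p 7mer-m8, chr15:77079203-77079224: gctttcagaccataCAGTATTc
Rbfox1 let-7f-5p 7mer-A1, chr16:7410000-7410021: acattttttatcttaTACCTCA

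The study found these microRNAs raised in TAC. It arrived at them through predicted sites in Rbfox2, binding of the microRNA-carrying protein Argonaute and reporter assays. That Rbfox2 held a match to each was fixed by that choice and is no finding. Over the 12389 tested genes with an annotated 3′ untranslated region, a let-7f seed match was present in 17.4%, a miR-92a match in 14.3%, a miR-200b match in 21.4%, a miR-24 match in 27.0% and a miR-16 match in 28.9%. Qk, with 7014 bases, also held 8 matches, of which 4 were to miR-200b, 2 to miR-92a and 2 to miR-24. Celf1, Celf2 and Ptbp1 held 3 each, Rbm20, Mbnl1 and Mbnl2 held 1 each, and Rbm24 held 0. In all, 9 of 10 regulators, Rbfox2 included, had a match, against 60.6% of the tested genes, but their regions are long, and per kilobase the regulators held 0.763 matches against 0.866 over all tested genes. Matches were scored here by letters alone, and neither microRNA levels nor microRNA binding was measured in these libraries. The matches listed for Rbfox2 are not all sites that the study found active. In the study, the miR-24-3p match further from the stop codon lacked Argonaute binding and showed no reporter effect.

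RBM20 represses exons in titin and in calcium-handling genes, and mutation of the gene is a cause of dilated cardiomyopathy. Rbm20 (ENSMUSG00000043639, chr19:53677306-53867080, plus strand) stood at 194 and 205 CPM in sham and at 205 and 176 CPM in TAC. The groups overlapped, TAC 2 was the lowest library, and the log2 fold change was -0.07 ± 0.09 (SE, n = 2 per group, 95% interval -0.28 to 0.15, edgeR adjusted p = 0.668). RBM24 is needed for sarcomere assembly in the developing heart. Rbm24 (ENSMUSG00000038132, chr13:46418434-46431095, plus strand) gave 128 and 127 CPM in sham and 164 and 130 CPM in TAC. The groups did not overlap, but TAC 1 alone stood well above the rest, and TAC 2 lay within 3 CPM of both sham libraries. The log2 fold change was 0.21 ± 0.11 (SE, n = 2 per group, 95% interval -0.05 to 0.47, edgeR adjusted p = 0.272). Without TAC 1 it was 0.02 (adjusted p = 0.922) and without TAC 2 it was 0.37 (adjusted p = 0.0384), so 1 library decided the value of Rbm24. TAC 1 was also the library with the highest mitochondrial share, and its part in this was not tested. On total counts the log2 fold change of Rbm24 was 0.01.

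MBNL proteins move splicing towards mature muscle patterns and are the proteins trapped by expanded repeats in myotonic dystrophy. Mbnl1 (ENSMUSG00000027763, chr3:60472830-60629750, plus strand) had 90.8 and 91.9 CPM in sham and 79.6 and 82.3 CPM in TAC. The groups did not overlap and each pair was tight. Its log2 fold change was -0.17 ± 0.07 (SE, n = 2 per group, 95% interval -0.34 to -0.01), with an unadjusted p of 0.0402 and an edgeR adjusted p of 0.163, so Mbnl1 did not pass the test. Mbnl2 (ENSMUSG00000022139, chr14:120275669-120431697, plus strand) had 145 and 160 CPM in sham and 162 and 137 CPM in TAC. Here the highest and the lowest library were both TAC, and the log2 fold change was -0.03 ± 0.10 (SE, n = 2 per group, 95% interval -0.26 to 0.21, edgeR adjusted p = 0.892).

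CELF proteins often act against MBNL proteins on the same exons and fall in the heart after birth. Celf1 (ENSMUSG00000005506, chr2:90940382-91019497, plus strand) had 72.5 and 76.9 CPM in sham and 70.5 and 76.6 CPM in TAC. These values interleaved, with a log2 fold change of -0.02 ± 0.08 (SE, n = 2 per group, 95% interval -0.21 to 0.16, edgeR adjusted p = 0.876). Celf2 (ENSMUSG00000002107, chr2:6539694-7509563, minus strand) had 45.9 and 48.3 CPM in sham and 50.2 and 54.0 CPM in TAC. Both TAC libraries of Celf2 lay above both sham libraries, by a log2 fold change of 0.15 ± 0.08 (SE, n = 2 per group, 95% interval -0.04 to 0.34, edgeR adjusted p = 0.286). The sign turned to -0.04 with total counts and to -0.22 with limma on log2(FPKM + 1), so no direction can be given for Celf2.

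PTBP1 binds pyrimidine-rich tracts, represses exons and is typical of immature and non-muscle cells. Ptbp1 (ENSMUSG00000006498, chr10:79854427-79864771, plus strand) had 18.3 and 14.1 CPM in sham 1 and sham 2, against 10.3 and 12.9 CPM in TAC 1 and TAC 2. Both TAC libraries lay below both sham libraries, but sham 2 and TAC 2 were close. The log2 fold change was -0.49 ± 0.17 (SE, n = 2 per group, 95% interval -0.88 to -0.09, unadjusted p = 0.0218, edgeR adjusted p = 0.121), as large as that of Rbfox1 with a wider error. It was -0.29 without sham 1 (adjusted p = 0.462) and -0.66 without sham 2 (adjusted p = 0.0454). Across libraries Ptbp1 was ordered like the summed endothelial and fibroblast markers, highest in sham 1 and lowest in TAC 1, and their part in it was not tested. Quaking, encoded by Qk (ENSMUSG00000062078, chr17:10202601-10319854, minus strand), had 438 and 428 CPM in sham and 447 and 418 CPM in TAC. The TAC pair enclosed the sham pair, and the log2 fold change was 0.00 ± 0.08 (SE, n = 2 per group, 95% interval -0.18 to 0.18, edgeR adjusted p = 0.994).

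**Figure D2:**
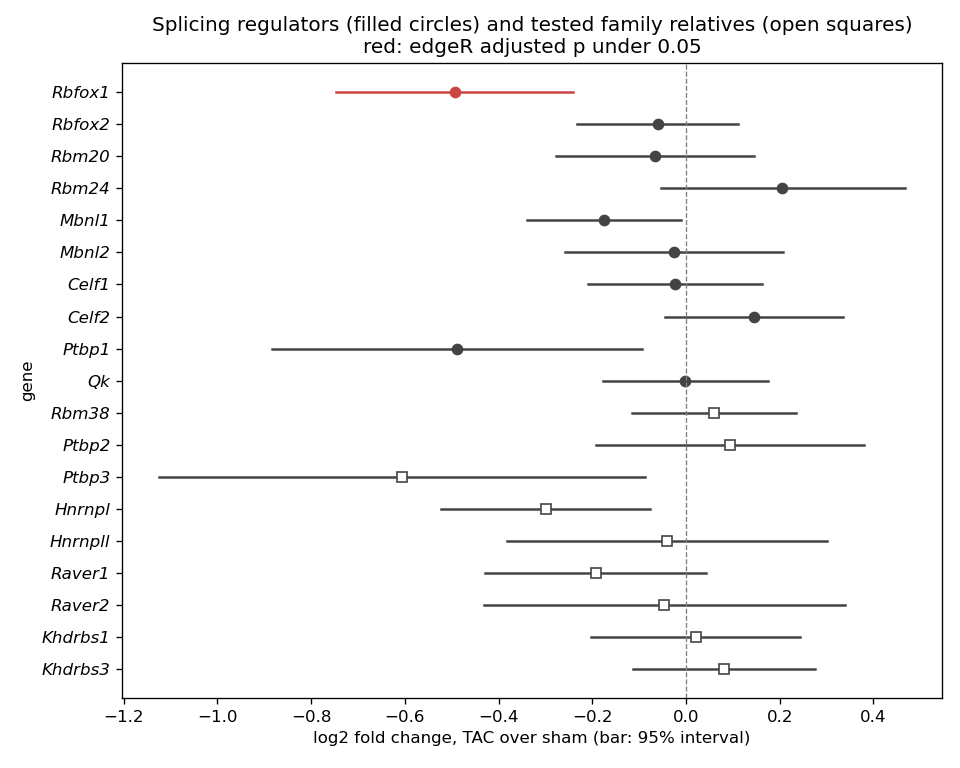
Log2 fold change of TAC over sham with its 95% interval for the 10 splicing regulators (filled circles) and the 9 tested relatives (open squares), red where the edgeR adjusted p is under 0.05. Rbfox1 at -0.49 is the only red point, and the intervals of Mbnl1, Ptbp1, Ptbp3 and Hnrnpl also miss 0 but did not pass the adjusted test.

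Levels were compared between genes on the deposited FPKM, which divides by transcript length. Qk led with 60.1 ± 4.03 FPKM (SD, n = 4 libraries) and did not overlap the next gene. Rbm20 (46.4 ± 5.25), Rbm24 (44.2 ± 1.94) and Mbnl2 (42.5 ± 5.98) followed with overlapping ranges. A step down led to Mbnl1 (17.9 ± 2.85), Rbfox2 (15.9 ± 2.02) and Celf1 (15.1 ± 1.96), whose ranges overlapped from 1 to the next. Celf2 (10.1 ± 1.48), Rbfox1 (8.72 ± 2.28) and Ptbp1 (5.70 ± 1.68) formed the lowest step, again with overlapping neighbours. On this scale both TAC libraries lay below both sham libraries for 8 of the 10 regulators, all except Rbm24 and Celf2, against 45.6% of all genes tested. The regulators lay between the 59.8th percentile (Ptbp1) and the 94.8th (Qk) of FPKM among tested genes. Rbfox1 was at 11.2 and 10.2 FPKM in sham and at 6.66 and 6.90 FPKM in TAC, the same direction as its CPM.

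**Figure D3:**
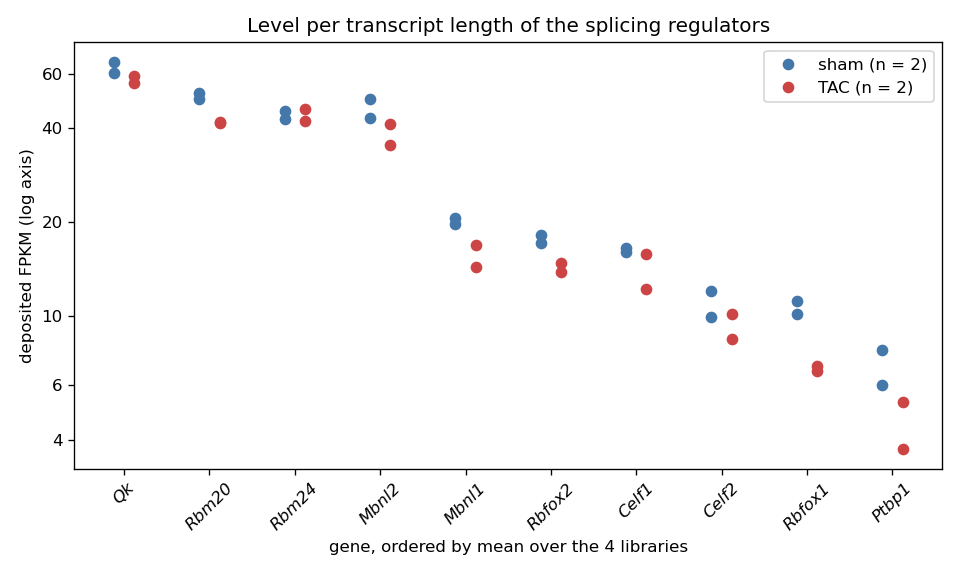
Deposited FPKM of each regulator in the 4 libraries on a log axis, genes ordered by their mean (sham in blue, TAC in red). Levels fall in steps from Qk (60.1) through Rbm20, Rbm24 and Mbnl2 to Ptbp1 (5.70), and on this total-count scale both TAC points lie below both sham points for 8 of 10 regulators, against 45.6% of all genes tested.

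Ratios between a pair of genes cancel the scaling of a library. The Rbfox1 to Rbfox2 ratio of FPKM was 0.615 and 0.594 in sham and 0.482 and 0.468 in TAC, so the muscle and neuron paralog made up a smaller part of the pair in both TAC libraries. The log2 difference was -0.35 (exact permutation p = 0.333, the smallest that 2 against 2 can give), and -0.44 on the ratio of counts. For Mbnl1 to Mbnl2 the ratio was 0.475 and 0.396 in sham and 0.347 and 0.479 in TAC, which overlapped. Celf1 to Celf2 gave 1.66 and 1.33 in sham and 1.45 and 1.56 in TAC, which overlapped too. The same Celf1 to Celf2 ratio taken on counts was 1.58 and 1.59 in sham and 1.40 and 1.42 in TAC and did not overlap, so its reading depends on the unit. For Rbm24 to Rbm20, which are not paralogs, the ratio was 0.914 and 0.823 in sham and 1.10 and 1.02 in TAC, without overlap (log2 difference 0.28, exact permutation p = 0.333).

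CPM and FPKM differ in scaling, and total counts in place of TMM moved the log2 fold change of Rbm24 from 0.21 to 0.01. That of Rbm20 moved from -0.07 to -0.26. FPKM is also divided by a length, which differs between libraries for some genes. That length was read back as count divided by FPKM and by the total count. It came within 1% of the annotated length in all 4 libraries for 500 of 511 well-counted genes with a single transcript (97.8%), and Rbm24 gave 3086 bases in every library, the annotated length of the single coding transcript of that gene. The implied length is a property of the authors' estimate and does not measure any exon. A gene was set apart when its groups did not overlap and the group means differed by over 5%, which held for 659 of 7792 well-counted genes (8.46%) and for 1 of 10 regulators. That gene was Celf2, at 5061 and 4181 bases in sham and 5187 and 5376 bases in TAC (14.8% longer). The sham pair itself differed by more than the group means, and sham 2 stood apart from the other 3 libraries.

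Rbfox2 gave 5173, 4925, 5109 and 5375 bases in sham 1, sham 2, TAC 1 and TAC 2, and Rbfox1 gave 2070, 2164, 2076 and 2051 bases, with overlapping groups for both genes. Mbnl1 stayed between 4829 and 4903 bases, Rbm20 between 4102 and 4269, Celf1 between 4834 and 5009, Ptbp1 between 2394 and 2588, and Mbnl2 ranged more widely, from 3344 to 3918. Qk was the other regulator whose groups did not overlap, at 7330 and 7397 bases in sham and 6952 and 7163 bases in TAC, a difference of -4.17%. Non-overlap alone thus held for 2 of 10 regulators. In the lists described below it held for 3 of 8 well-counted relatives, 8 of 20 SR genes, 17 of 34 hnRNPs and 21 of 37 targets. Among 37 well-counted target genes of these proteins, 5 were set apart, and those given here were named after their values were seen. Sorbs2, an adaptor at the Z-disc, was 12.9% longer in TAC, with 3057 and 2857 bases in sham and 3262 and 3416 bases in TAC. Ryr2, the calcium release channel, was 8.58% longer, with 11355 and 10842 bases in sham and 12120 and 11974 bases in TAC. Camk2g was 10.3% longer, with 2698 and 2451 bases in sham and 2843 and 2831 bases in TAC, and Dmd, which encodes dystrophin, differed by -7.10%, with 6386 and 7100 bases in sham and 6350 and 6162 bases in TAC. In Camk2g and Dmd sham 1 lay closer to the TAC libraries than to sham 2. Ttn, Camk2d, Enah and Jph2 were not set apart.

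**Figure D4:**
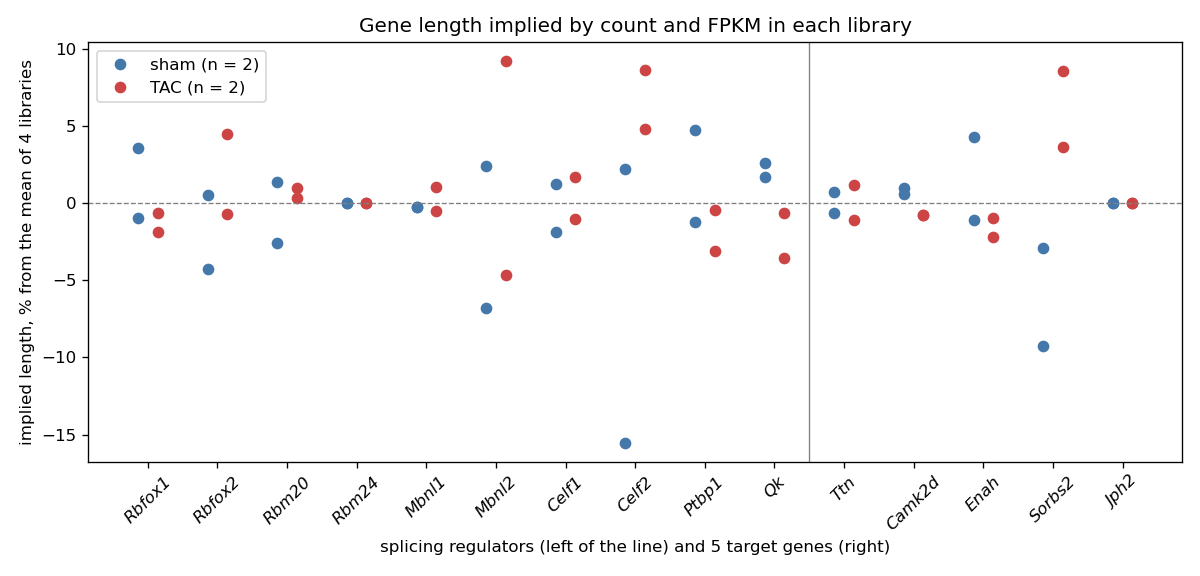
Length implied by count and FPKM in each library, in percent from the gene's mean over 4 libraries, for the 10 regulators (left of the line) and 5 target genes (right). Sorbs2 has both TAC points above both sham points, Rbm24 and Jph2 sit at 0 in every library, and for Celf2 sham 2 stands apart from the other 3 libraries.

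Relatives of the 10 proteins were measured alongside. Of 16 relatives, 9 had enough counts to test and 0 were called in edgeR with TMM, in DESeq2 or in limma, with 2 at an unadjusted p under 0.05 in edgeR. With other filters, scalings or libraries, edgeR called Ptbp3 or Hnrnpl. Ptbp3, a PTB paralog, had 20.4 and 17.0 CPM in sham and 9.25 and 15.4 CPM in TAC. Its log2 fold change was -0.61 ± 0.22 (SE, n = 2 per group, edgeR adjusted p = 0.136), which was -0.28 without TAC 1 (adjusted p = 0.398) and -1.01 without TAC 2 (adjusted p = 0.00788), so 1 TAC library decided its size. Hnrnpl, an hnRNP related to PTB, had 58.6 and 69.1 CPM in sham and 51.6 and 52.2 CPM in TAC, which gave -0.30 ± 0.10 (SE, log2 scale, edgeR adjusted p = 0.103), and -0.17 without sham 2 (adjusted p = 0.415). Raver1, a PTB partner, was at -0.19, and Ptbp2, the neuronal PTB paralog, was at 0.09. Rbm38, Hnrnpll, Raver2, Khdrbs1 and Khdrbs3 lay between -0.05 and 0.08. Rbfox3, Celf3, Celf6 and Khdrbs2 had 0 counts in all libraries, and Mbnl3, Celf4 and Celf5 had at most 6, so in these cells the RBFOX, MBNL and CELF families were counted almost wholly through Rbfox1, Rbfox2, Mbnl1, Mbnl2, Celf1 and Celf2.

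Other splicing factors were counted beside the 5.01% background. Among SR proteins and their kinases, which promote exon recognition, 2 of 21 tested genes (9.52%) were called, in opposite directions. Srsf3 rose from 42.7 and 35.6 CPM in sham to 63.9 and 55.6 CPM in TAC (log2 fold change 0.61 ± 0.11, edgeR adjusted p = 0.0311). The Srsf3 call was lost with total counts (0.41, adjusted p = 0.112), with totals without mitochondrial genes (0.51, adjusted p = 0.0583), without TAC 1 (0.51, adjusted p = 0.0789) and with limma on log2(FPKM + 1) (0.29, adjusted p = 0.227). Srsf5 fell from 80.9 and 92.1 CPM in sham to 53.5 and 56.2 CPM in TAC (log2 fold change -0.66 ± 0.09, edgeR adjusted p = 0.0122), a call kept in 12 of 12 alternatives. The groups of neither gene overlapped. Among hnRNPs and other regulators, 1 of 37 (2.70%) was called. The median log2 fold change was 0.10 for the SR list and 0.06 for the hnRNP list.

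Of 40 listed target genes of these regulators in muscle, most of them known for splicing, 6 (15.0%) were called at the gene level. All 6 were higher with TMM, while 2.58% of all tested genes were called higher. With total counts 4 were called higher and 2 lower, the latter being Ryr2 and Mef2c, named after their values were seen. The median of this list was 0.06. Like the other lists, it was chosen with earlier results of these data known, so its share of calls is no test. Nrap, a scaffold of growing myofibrils, rose from 602 and 641 CPM in sham to 1144 and 997 CPM in TAC (log2 fold change 0.78 ± 0.09, edgeR adjusted p = 0.00796). Pdlim5, a Z-disc adaptor, rose from 503 and 575 CPM to 771 and 717 CPM (log2 fold change 0.47 ± 0.09, edgeR adjusted p = 0.0373), a call lost with total counts (0.28, adjusted p = 0.187), without sham 1 (adjusted p = 0.0994), without TAC 1 (adjusted p = 0.102) and with limma (0.30, adjusted p = 0.169). Sorbs2 at 0.73, Enah, a regulator of actin filaments, at 1.09, and Tpm2, a tropomyosin, at 1.75 were also called higher. Sorbs2 was at 0.36 in limma on log2(FPKM + 1) (adjusted p = 0.108) and lost its call there. Tpm2 was low and uneven, with 7.36 and 3.23 CPM in sham and 22.5 and 13.2 CPM in TAC. Its log2 fold change ran from 1.29 to 2.47 with 1 library left out, and its call was lost without TAC 1 (adjusted p = 0.108), with DESeq2 (0.0832), with totals without mitochondrial genes (0.0633) and with limma (0.0997). Ttn, the best known RBM20 target, was at 0.06 ± 0.11 (SE, log2 scale, edgeR adjusted p = 0.755). Camk2d at 0.24 (adjusted p = 0.0921) and Jph2, which holds the junction between surface membrane and calcium store, at 0.25 (adjusted p = 0.117) did not pass the test.

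**Figure D5:**
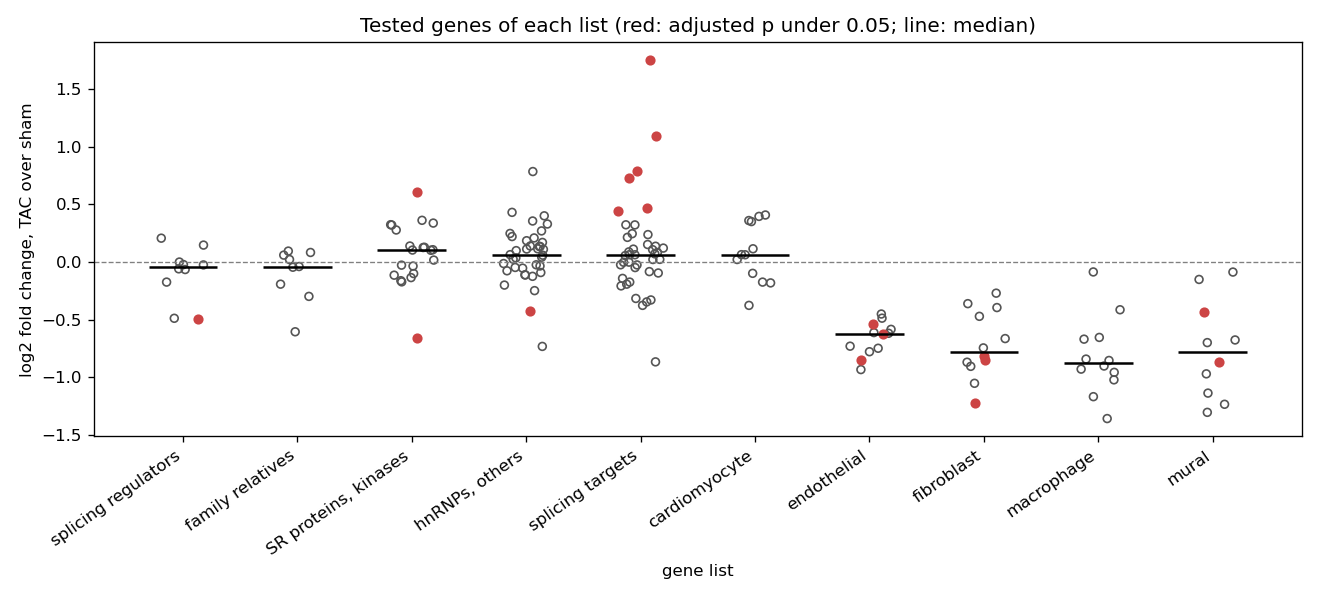
Log2 fold change of TAC over sham for every tested gene of each list (open circles, red where the edgeR adjusted p is under 0.05, bars at the medians). The splicing regulators, their relatives, SR proteins, hnRNPs and targets centre near 0, between -0.04 and 0.10, and the 4 lists of other heart cells centre between -0.62 and -0.88.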

How the data were processed

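RNA from cardiomyocytes of 2 sham and 2 TAC mice was sequenced by the authors, who deposited an expected count and an FPKM value per gene and library. The submitters' processing notes name Bowtie2 2.2.8, StringTie 1.3.1 and mm10. The counting program and strand setting were not given in the sources used here. Between 1432 and 1519 expected counts per library were not whole, and all were rounded. A symbol was missing for 16 rows. Counts were tested in R 4.3.3 with edgeR 4.0.16 (filterByExpr, TMM, glmQLFTest without a block), and p-values were adjusted by Benjamini-Hochberg over 12499 genes. The fit put the common biological coefficient of variation at 10.5%. The step was tested on simulated data. Alternatives used DESeq2 1.42.0, limma 3.58.1 on log2(FPKM + 1) and log2(FPKM + 0.1), other scaling, no filter, a replicate block and each library left out. Lengths and 3′ untranslated regions came from GENCODE M21 (GRCm38, which is mm10), taking the longest region per gene. Implied length used genes with at least 100 counts in every library and a mean FPKM of at least 2. The 10 regulators and the lists were chosen with earlier results of these data known. All 10 regulators, every tested relative and up to 5 called genes per direction of the other lists were named, plus Ttn, Camk2d, Enah, Sorbs2 and Jph2, except for items not reported here. Marker lists were given by counts and sums.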

Additional observations from a re-analysis of the deposited data

How the results depend on the processing

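The fall of Rbfox1 kept its direction in 12 of 12 alternatives and its call in 5 of them, namely DESeq2, no low-count filter, both other scalings and the crossed pairing. The crossed pairing was added after the data were seen, and no source used here ties its libraries together. Over the 30 genes whose values were recomputed, 360 comparisons with alternatives gave 322 on the same side of the threshold, 28 that lost and 10 that gained a call, and 0 that turned the direction of a called gene. The cause of the changes below was not tested.

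Genes called over the whole table numbered 626, against 1676 with no low-count filter, 214 and 195 with limma on FPKM at pseudocounts of 1 and 0.1, 925 with DESeq2, and 301 to 1336 with 1 library left out (lowest without TAC 1, highest without TAC 2). A group left with 1 library was assumed to vary like the other group. Scaling by total counts called 528 and raised the share of calls that were lower from 48.6% to 80.1%. It also moved the median regulator from -0.04 to -0.235, close to the move of the median of all genes, and left 9 of 10 regulators negative. With totals without mitochondrial genes the share lower was 70.5%.

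Regulators called numbered 2 with no filter (Rbfox1 and Ptbp1), 0 with either limma fit, and 0 to 1 with a library left out (Ptbp1 without sham 2, Rbm24 without TAC 2). Relatives called numbered 1 with no filter (Ptbp3), 1 without mitochondrial totals (Hnrnpl) and 0 to 1 with a library left out. SR genes called numbered 1 with total counts, 1 without mitochondrial totals, 1 with either limma fit and 1 to 6 with a library left out. For hnRNPs the numbers were 5 with no filter, 2 without mitochondrial totals, 0 with either limma fit and 0 to 2 with a library left out. For targets they were 12 with no filter (4 of them lower), 3 with either limma fit (1 lower) and 4 to 9 with a library left out (1 or 2 lower), and DESeq2 called 9 (2 lower).

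The methods speak of pairs of sham and TAC mice, but no source used here ties a replicate number to a pair, and same-numbered libraries did not deviate together (correlation -0.242 over genes). With the replicate block, 566 genes and 0 regulators were called, Rbfox1 at an adjusted p of 0.0639. The crossed pairing, added after the data were seen, called 2131 genes, 2 regulators, 2 relatives, 4 SR genes, 7 hnRNPs and 13 targets.

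For the implied length, a difference of 2% set apart 2 regulators and 1206 genes, 10% set apart 288 genes, a minimum of 500 counts 303 genes, and leaving out a library 1 to 3 regulators and 1027 to 1189 genes. With 2 mice per group, the differences of Mbnl1 and Celf2 did not pass the test, and Rbfox1 and Ptbp1, with 286 to 667 counts per library, carried more counting error than Qk.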
